A study of Mus musculus with 12 samples.

Results

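Experimental autoimmune encephalomyelitis (EAE) is a mouse disease in which T cells that recognise a myelin protein enter the central nervous system (CNS) and drive inflammation there. The comparison described here sets CD4+ T cells taken from the CNS of C57BL/6 mice at the peak of EAE, induced by immunisation with a peptide of myelin oligodendrocyte glycoprotein (MOG35-55), against naive splenic CD4+ T cells of the B6.2d2 strain, which carry a transgenic T cell receptor specific for MOG. Its members were chosen by their sample labels: 3 naive and 3 immunised arrays, 6 of the 12 arrays of the series. The other arrays held Th17 cells differentiated in culture from B6.2d2 cells, and such Th17 cells recovered from the CNS of lymphopenic RAG1-/- recipients with EAE (the transferred group, 3 arrays), which is used below as the group most like the immunised one. Disease, tissue (CNS against spleen), strain and receptor transgene all differ between the immunised and naive groups and cannot be told apart. The immunised mice were wild-type, so their CD4+ cells had a mixed repertoire, whereas the naive cells were enriched for a single specificity. Age, adjuvant and the purity of the isolated cells are not given in the labels.

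CD4+ T cells leave quiescence when their receptor and co-stimulatory molecules are engaged, and then differentiate into helper subsets that are known by their cytokines and master transcription factors. Th17 cells make IL-17, Th1 cells make interferon gamma under control of T-bet, and regulatory T cells restrain both through FOXP3. In EAE, Th17 and Th1 cells, together with the granulocyte-macrophage factor they secrete, are known to recruit and activate neutrophils, monocytes and microglia.

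Total RNA was measured on one-colour Agilent arrays, and levels are given below as log2 signal relative to the 75th percentile of the array's own non-control signals, so that 0 is that percentile. Each array had 57.1 to 64.9 % of probes well above background, and 0 spots were saturated. Pairs of arrays correlated at 0.976 to 0.982 among naive and 0.982 to 0.991 among immunised replicates (Pearson's r across genes, as a description). Of 18631 genes tested with limma, 9268 (49.7%) were called at an adjusted p under 0.05: 3706 (19.9%) were higher and 5562 (29.9%) lower in the immunised group. A difference of at least 2-fold was measured for 2930 of those that were higher and 3230 of those that were lower. The groups did not overlap for 9078 of the called genes, and the median difference over all tested genes was −0.24. With such shares called, a gene list whose share of called members lies near 19.9% higher and 29.9% lower differs little from the background. The series text says that 3 independent experiments gave the replicates. Whether separate mice or pools of mice were used is not stated, so p-values measure only the spread between these samples.

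**Figure D1:**
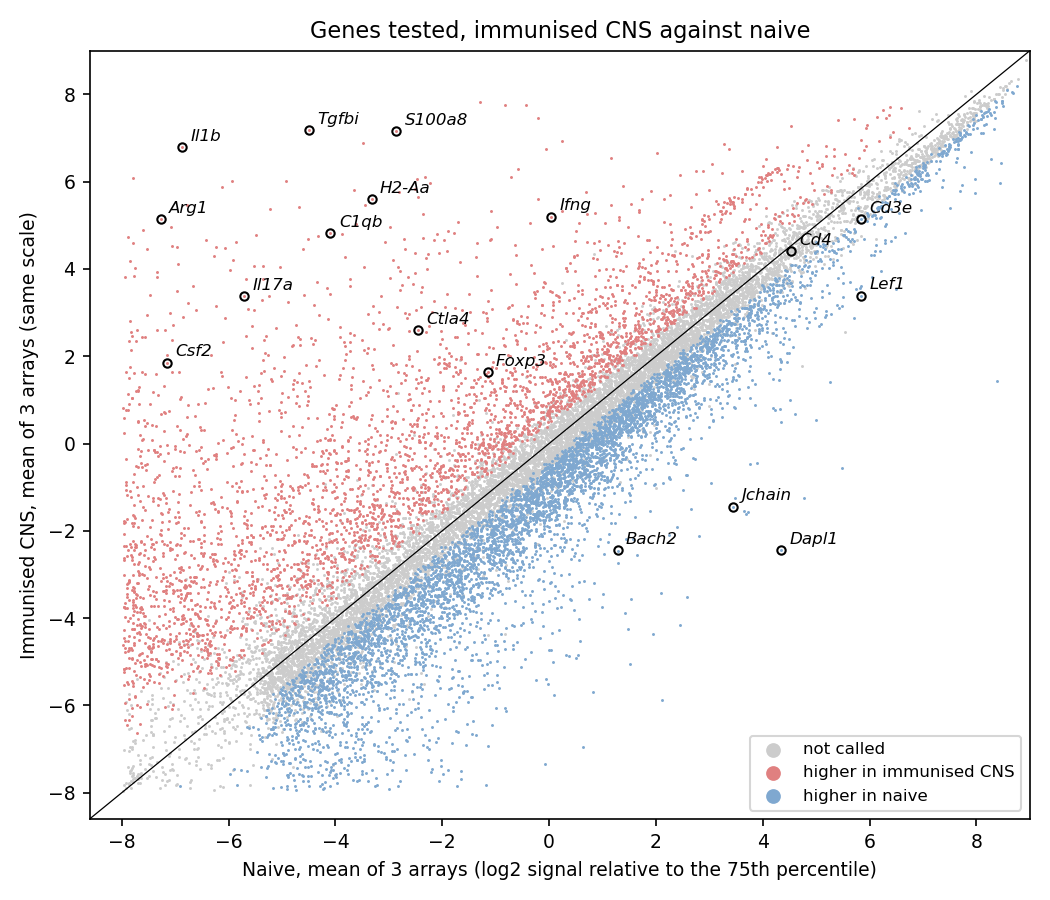
Mean level of each of 18631 genes tested in 3 naive arrays (horizontal axis) and 3 immunised CNS arrays (vertical axis), as log2 signal relative to the 75th percentile of each array; the diagonal marks equal levels, and red and blue points are the 3706 genes called higher and the 5562 called lower. Il1b, Arg1 and Tgfbi lie farthest above the diagonal among the labelled genes (Il1b and Arg1 were not well above background on any naive array), Dapl1 lies far below it, and Cd4 lies near it.

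Tgfbi, S100a8 and Foxp3 rose and Dapl1 fell. Tgfbi encodes a secreted matrix protein induced by TGF-β, made in quantity by macrophages. Its level was −4.88, −3.83 and −4.80 on the naive arrays and 7.48, 6.51 and 7.56 on the immunised arrays. The difference was 11.68 ± 1.02 (log2, SE, n = 3 against 3, adjusted p = 1.13e-05), or 3291-fold, with a wide gap between the groups. The lowest signals well above background on the naive arrays were −5.26, −5.90 and −5.78. The naive values of Tgfbi lay not far above these, so the size of the fold rests on dim signals. S100a8, an abundant calcium-binding protein of neutrophils and monocytes, was at −2.40, −2.97 and −3.23 in naive and 7.40, 7.0 and 7.09 in immunised samples. It rose by 10.03 ± 0.88 (adjusted p = 1.22e-05), and no immunised sample came near the naive range.

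Foxp3, the master transcription factor of regulatory T cells, was measured by a probe at chrX:7172301-7172360 (mm9). It was at −1.16, −1.66 and −0.62 in naive and at 1.37, 2.08 and 1.45 in immunised samples, so the lowest immunised value lay above the highest naive one. The difference was 2.78 ± 0.51 (adjusted p = 0.00134). Dapl1, which is abundant in quiescent T cells, was measured by a probe at chr2:59342824-59342883 (mm9). Its level was 4.86, 3.75 and 4.44 in naive and −1.98, −1.63 and −3.70 in immunised samples. It fell by 6.78 ± 0.85 on the log2 scale (adjusted p = 0.000123), a 110.1-fold difference. Their position within the gene's exons was not analysed here.

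**Figure D2:**
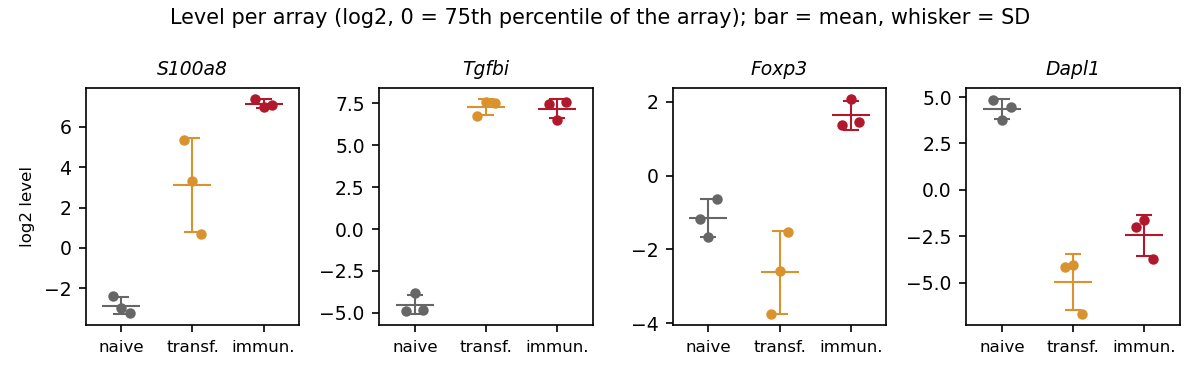
Level of S100a8, Tgfbi, Foxp3 and Dapl1 on each of 3 naive, 3 transferred and 3 immunised arrays (vertical axis, log2 signal relative to the 75th percentile of the array; bars are means and whiskers SDs). Foxp3 is higher in every immunised sample than in any other sample shown, whereas Tgfbi is high in both CNS groups.

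Both groups carried the transcripts of T cells. Cd4, the co-receptor used to define these cells, was at 4.61, 4.57 and 4.39 in naive and 4.41, 4.72 and 4.11 in immunised samples, a difference of −0.11 ± 0.19 (adjusted p = 0.657). Of 21 genes of the receptor complex and its proximal signalling, 0 were higher and 8 were lower, with a median difference of −0.37. The CD3 chains, which carry the receptor's signal into the cell, each fell slightly: Cd3e by 0.71, Cd3d by 0.72 and Cd3g by 0.90. Their adjusted p exceeded 0.05 without immunised replicate 1 or 3 (0.0752 for Cd3e without replicate 3), where 5 of the list were lower, and with median scaling of the arrays (0.0608 for Cd3e, 0.0588 for Cd3d and 0.0544 for Cd3g). Those of Cd3d and Cd3g also did without naive replicate 1 (0.0648 and 0.0908). Larger falls were in a signalling enzyme and the zeta chain. The protein kinase C isoform Prkcq fell by 1.69 (adjusted p = 0.000839) and Cd247, the zeta chain, by 1.27 (adjusted p = 0.0113). In RNA from many cells, fewer cells of a type and less RNA per cell cannot be told apart.

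Genes that mark myeloid cells were far higher in the immunised CNS samples than in naive samples, although the labels call both CD4+ T cells. Of 28 macrophage and monocyte markers tested, 26 were higher and 1 lower (median difference 8.39, or 8.17 with members that were not well above background in naive samples at their lower bounds). Of 26 neutrophil markers, 21 were higher and 2 lower (median 6.89, or 5.72 at bounds). Of 12 microglia markers, 10 were higher and 0 lower (median 5.14, or 4.27 at bounds). Of 12 dendritic cell markers, 10 were higher and 0 lower (median 3.41, or 2.33 at bounds). The summed signal of the macrophage list, in units of each array's 75th percentile, ranged from 25.4 to 95.5 in naive and from 545 to 1090.3 in immunised samples. For the neutrophil list the ranges were 108 to 221 and 571 to 733. For the microglia list they were 78.3 to 121 and 117 to 154, and for the dendritic list they were 86.9 to 127 and 103 to 128, and in both the groups overlapped. In naive samples each sum came mostly from 1 bright probe, that of Itgam in the macrophage, Csf3r in the neutrophil and Siglech in the microglia and dendritic lists. Without that gene the macrophage sum was 3.9 to 4.5 in naive and 525 to 1079 in immunised samples, and the neutrophil sum 6.78 to 8.96 and 504 to 659. The microglia sum was then 4.07 to 4.86 and 45.2 to 82.3, the dendritic sum 9.87 to 12.7 and 32.0 to 57.1, and no list's groups overlapped. Leaving out these genes was chosen after their values were seen. Not well above background on any naive array were 7 macrophage, 11 neutrophil, 3 microglia and 3 dendritic cell markers of those tested. Among them were Ms4a7 and Msr1 (macrophages) and Ltf, Ngp and Mmp8 (neutrophils). Such members passed the filter only through other groups, so they could hardly be called lower.

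Among the macrophage markers, Lyz2, the lysozyme of myeloid cells, was at −5.78, −4.49 and −5.40 in naive and 5.47, 4.87 and 5.80 in immunised samples and well above background on 1 of 3 naive arrays. The membrane protein Ms4a7 was at least 699.8-fold higher, a bound set by the lowest signals well above background. The signalling adaptors Tyrobp (8.36) and Fcer1g (8.21) rose, as did the Fc receptor Fcgr3 (8.13). Itgam, the integrin chain of CD11b, was the exception, with a difference of −1.42 from its brightest probe. Its measured probes ranged from −1.42 to 5.14, so its direction is not settled. The microglial receptors P2ry12 (6.02) and Cx3cr1 (6.42) and the microglial membrane protein Tmem119 (6.86) were higher. P2ry12 and Tmem119 were well above background on 1 and 1 of 3 naive arrays.

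Among the neutrophil markers, Camp, Lcn2 and Ltf rose and Mpo fell. Camp, the cathelicidin precursor, was at −3.46, −3.41 and −3.50 in naive and 5.76, 5.12 and 5.53 in immunised samples (difference 8.92 ± 1.10, adjusted p = 0.000112). Lcn2, the iron-carrier-binding lipocalin, rose by 8.67, and Ltf, lactoferrin, was at least 1097-fold higher. Mpo, which encodes a peroxidase, was at 1.07, 1.65 and 1.58 in naive and −3.00, −1.70 and −1.87 in immunised samples. It fell by 3.62 ± 0.53 on the log2 scale (adjusted p = 0.000334), and the groups did not overlap.

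Markers of further cell types were mixed. Their shares, given as higher and lower, stand against 19.9% and 29.9% of all genes. Of 12 CD8 and NK cell markers, 8 were higher and 1 lower (66.7% and 8.3%), and Cd8b1, a CD8 chain, fell by 2.64 (adjusted p = 0.000112). The list shares Fcgr3 with the macrophage markers and Xcl1 with the chemokine ligands. Klrb1c, the NK1.1 antigen, was not well above background on any naive array and was at least 9.54-fold higher. Of 12 B cell markers, 2 were higher and 2 lower (16.7% and 16.7%, median −0.36). Their summed signal was 1.86 to 3.88 in naive and 4.37 to 8.46 in immunised samples. Of 16 neural and glial markers, 5 were higher and 3 lower (median 0.29). S100b, a glial calcium-binding protein, had the highest difference of the list and was at least 14.1-fold higher. The lowest difference of the list was −2.346. The summed signal of the list was lower in immunised samples, at 45.107 to 100.936 in naive and 17.976 to 35.832 in immunised samples. Without Snap25, the brightest member in naive samples, it was 27.544 to 31.044 and 15.13 to 24.277. Of 10 endothelial and stromal markers, 4 were higher and 1 lower (40% and 10%). Of 5 erythroid and platelet markers, 1 was higher and 2 lower (20% and 40%). Of 6 mast cell, basophil and eosinophil markers, 2 were higher and 3 lower (33.3% and 50%). The part of any of these cells in the results below was not tested.

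Th17 and Th1 genes rose together. Of 17 Th17 cytokines and factors tested, 12 were higher and 2 lower (median 2.88, against −0.24 over all genes). Il17a, the defining Th17 cytokine, was at −4.96, −6.27 and −5.89 in naive and 2.87, 4.69 and 2.58 in immunised samples. It rose by 9.09 ± 0.81 (adjusted p = 1.26e-05), with 1 of 3 naive arrays well above background. Il22, which acts on epithelial and glial cells, was at −3.58, −3.83 and −4.22 and −0.42, 0.26 and −0.09. Its difference was 3.79 ± 1.14 (adjusted p = 0.0182), and the groups did not overlap. The adjusted p of Il22 was just above 0.05 without naive replicate 3 (0.053) or immunised replicate 2 (0.0505). Il17f rose by 3.90 (adjusted p = 0.00234). Il1r1, the receptor through which IL-1 sustains Th17 cells, rose by 4.54, and the transcription factors Irf4, Rora and Maf by 3.36, 3.32 and 2.88. Il23r, the receptor for IL-23, was 2.60 higher but missed the threshold (adjusted p = 0.0909). It was called with the 6 arrays alone (0.00422) and with slide as a block (0.0204). It was also called without cultured Th17 replicate 3, whose spread enters the shared error (0.0104). The 2 falls were both in the IL-6 receptor: its alpha chain Il6ra fell by 2.14 (adjusted p = 6.59e-06) and its signalling chain Il6st by 2.28 (adjusted p = 0.000315).

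Of 17 Th1 genes, 12 were higher and 0 lower (median 2.18). Ifng, interferon gamma, was already measured in naive samples at 0.95, −0.17 and −0.65 and reached 4.91, 4.96 and 5.73 in immunised samples. The difference was 5.16 ± 1.61 (adjusted p = 0.0215), with no overlap. Its adjusted p exceeded 0.05 without naive replicate 2 (0.0518), naive replicate 3 (0.0641) or immunised replicate 3 (0.0665). The Th1 lineage factor Tbx21, which encodes T-bet, was at −2.0, −1.11 and −1.61 and 1.51, 1.62 and 1.36, a rise of 3.07 ± 0.65 (adjusted p = 0.00289). The chemokine receptor Cxcr6 rose by 5.08, the IL-18 receptor chain Il18rap by 4.48 and the death ligand Fasl by 2.96. The IL-12 receptor chain Il12rb1 rose by 2.03. Stat4, which carries the IL-12 signal, differed by −0.20 ± 0.28 (adjusted p = 0.574).

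Of 17 inflammatory and growth cytokines, 11 were higher and 2 lower (median 3.81). Csf2, the granulocyte-macrophage factor through which T cells act on myeloid cells in EAE, was not well above background on any naive array and was at 1.92, 1.64 and 2.0 in the immunised samples, at least 181-fold higher (adjusted p = 4.87e-06). Tnf was at 0.26, −0.53 and −0.04 in naive and 3.26, 3.48 and 4.37 in immunised samples and rose by 3.81 ± 0.82 (adjusted p = 0.0034). Il2, the T cell growth factor, rose by 3.61, and Tnfsf11, RANK ligand, by 4.68. Areg, an epidermal growth factor family member, was at least 93.1-fold higher, and Spp1, osteopontin, at least 125-fold higher. Il16 fell by 2.63 (adjusted p = 0.000162) and Ltb, lymphotoxin beta, by 1.34 (adjusted p = 0.00522, and 0.0608 with quantile normalization). Myeloid cells also make several of these factors, and the macrophage markers given above moved with the list; their part was not tested.

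**Figure D3:**
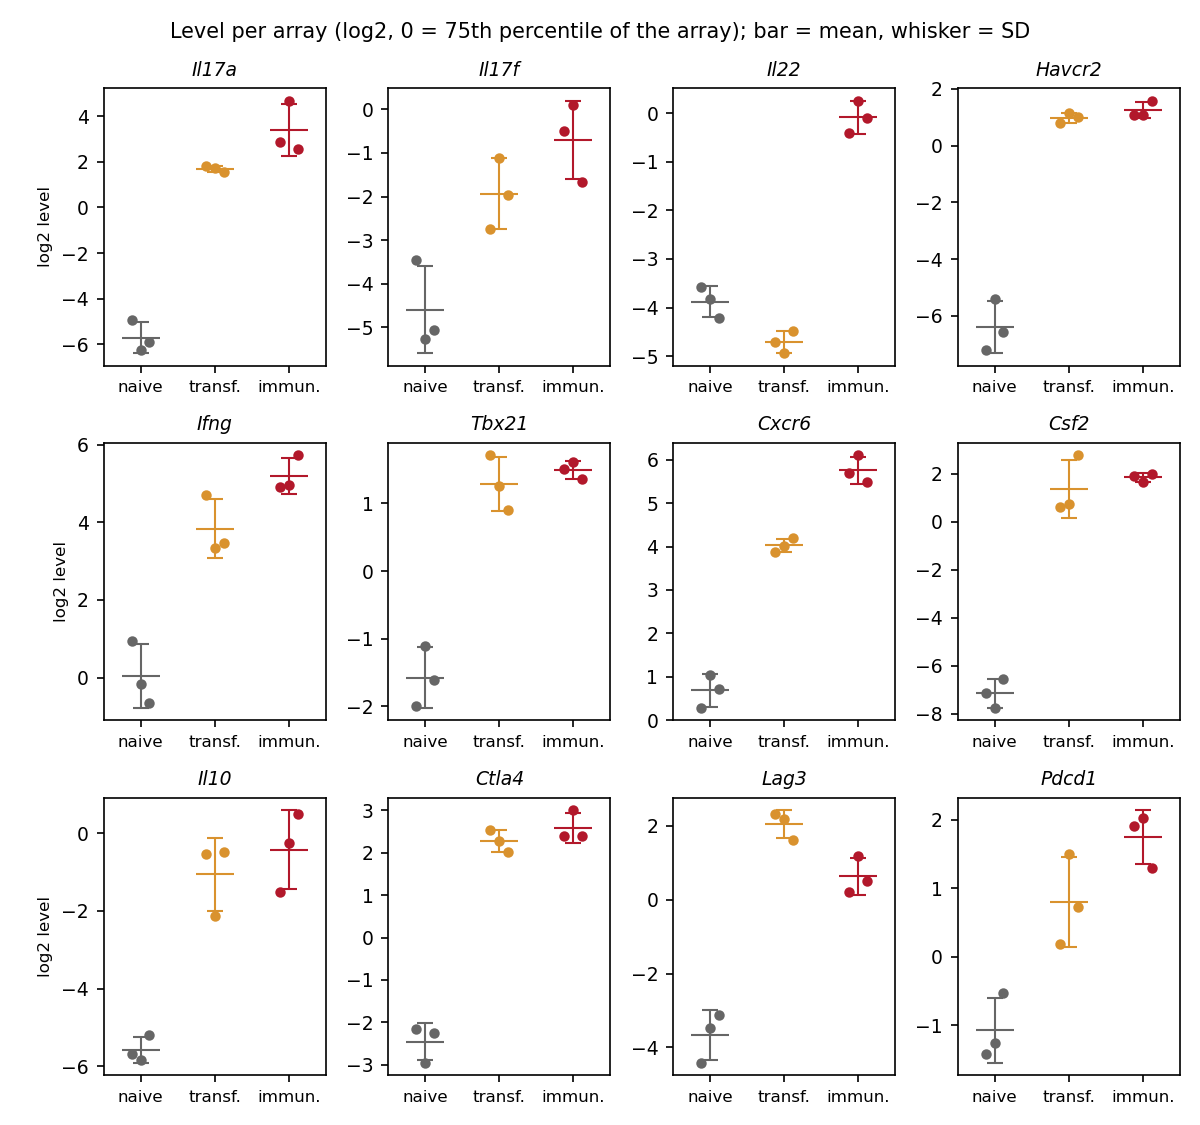
Level of 12 helper, regulatory and checkpoint genes on each of 3 naive, 3 transferred and 3 immunised arrays (vertical axis, log2 signal relative to the 75th percentile of the array; bars are means and whiskers SDs). For all 12 genes the lowest immunised value lies above the highest naive value; in naive samples Csf2 was well above background on no array, and Il17a, Il10 and Havcr2 on 1 of 3.

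Regulatory T cell genes rose. Of 25 tested, 21 were higher and 0 lower (median 3.51). The inhibitory receptor Ctla4 was at −2.17, −2.95 and −2.25 in naive and 2.39, 3.01 and 2.39 in immunised samples, a rise of 5.05 ± 0.30 (adjusted p = 1.07e-06). Il10, the anti-inflammatory cytokine, was at −5.69, −5.84 and −5.21 and −1.51, −0.25 and 0.50, well above background on 1 of 3 naive arrays, with a difference of 5.16 ± 1.09. The decoy IL-1 receptor Il1r2 rose by 8.07 and the chemokine receptor Ccr8 by 5.83, each with 2 of 3 naive arrays well above background. Entpd1, the ectonucleotidase CD39, was at least 28.3-fold higher, and its partner Nt5e, CD73, rose by 3.39. Il2ra, the high-affinity IL-2 receptor chain, rose by 3.1, Lrrc32, which displays latent TGF-β, by 3.51, and Prdm1, which encodes BLIMP-1, by 2.76. Ikzf2, which encodes HELIOS, was at −0.16, 0.20 and −0.22 in naive and 0.12, 0.55 and 0.17 in immunised samples. It differed by 0.34 ± 0.94 (adjusted p = 0.78), and Izumo1r, folate receptor 4, by −0.07 (adjusted p = 0.92). Several members of the list, such as Capg and Nrp1, are also expressed by myeloid cells.

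Of 6 Th2 genes, 3 were higher and 0 lower; these were Ccr8, the IL-33 receptor Il1rl1 (4.10) and Ccr4 (2.49). The Th2 lineage factor Gata3 differed by −0.17 ± 0.65 (adjusted p = 0.843). Of 10 follicular helper genes, 4 were higher and 1 lower (40% and 10%, against 19.9% and 29.9% of all genes). The receptor Icos rose by 3.67, the cytokine Il21 by 3.16 and the lineage factor Bcl6 by 1.70, whereas the B cell follicle receptor Cxcr5 differed by 0.08 (adjusted p = 0.934).

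Most receptors that activate T cells rose, as did several that restrain them. Of 14 co-inhibitory receptors and ligands, 7 were higher and 2 lower (median 1.84). Lag3, a receptor for MHC class II, was at −4.41, −3.48 and −3.11 in naive and 0.21, 1.17 and 0.52 in immunised samples (difference 4.30 ± 0.43, adjusted p = 2.86e-05). Havcr2, which encodes TIM-3, rose by 7.64 with 1 of 3 naive arrays well above background. Tigit rose by 4.62 and Pdcd1, which encodes PD-1, by 2.82. Btla, another inhibitory receptor, fell by 1.97 (adjusted p = 0.00272), and Cd244a fell by 1.25 (adjusted p = 0.00619, and 0.0741 in the 6 arrays alone with slide as a block). Of 17 activation and co-stimulation genes, 11 were higher and 0 lower (median 2.46). The memory marker Cd44 was at −0.30, −1.31 and −0.64 and 3.19, 3.17 and 3.03, a rise of 3.88 ± 0.28. Cd38 rose by 5.12, the IL-2 receptor chain Il2rb by 3.81 and the OX40 gene Tnfrsf4 by 3.85. Cd28 and Cd40lg differed by 0.46 and −0.01 (adjusted p = 0.298 and 0.995).

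Immediate early genes, which are transcribed within minutes of a stimulus, were higher in immunised samples. Of 21 tested, 16 were higher and 1 lower (median 3.08). The naive arrays differed among themselves here: the list's summed signal ran from 96.1 to 499 in naive and from 568 to 608 in immunised samples. Within slides the median difference was 1.04, 3.51 and 3.25 for replicates 1, 2 and 3. Nr4a1, an orphan nuclear receptor induced by T cell receptor signalling, was at 5.06, 1.72 and 3.05 in naive and 6.78, 6.99 and 6.82 in immunised samples (difference 3.59 ± 0.71, adjusted p = 0.00201). Naive replicate 1 was the highest of the naive samples. Atf3, a stress-induced factor, was at −4.59, −6.42 and −6.74 and 4.05, 4.02 and 4.59 (difference 10.13 ± 0.84), with 1 of 3 naive arrays well above background, and Nr4a3, of the same family as Nr4a1, was at least 18.8-fold higher. Egr2 rose by 3.69 and Fosl2 by 5.97. Myc fell by 0.87 (adjusted p = 0.00657).

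Nearly all chemokine ligands tested were higher. Of 25 tested, 23 were higher and 0 lower (median 6.70, or 6.06 with members at their bounds), and 14 were not well above background on any naive array. Those 14 passed the filter only through other groups and could hardly be called lower, so the count leans towards rises by selection. Of 29 listed, Ccl11, Ccl20, Ccl22 and Cxcl12 were below the filter. The neutrophil attractants Cxcl1 and Cxcl2 were at least 715-fold and 1213-fold higher, and Cxcl3 at least 65.8-fold. The monocyte attractants Ccl2 and Ccl7 were at least 1154-fold and 301-fold higher. Further inflammatory chemokines had measured levels in naive samples: Ccl3 was at −4.28, −4.73 and −4.54 in naive and 4.33, 4.54 and 5.19 in immunised samples (difference 9.20 ± 0.90, adjusted p = 2.44e-05), Ccl4 rose by 7.94, and Ccl5 by 4.64. Cxcl9 and Cxcl10, interferon-inducible ligands of CXCR3, rose by 6.70 and 5.77. Cxcl11, another CXCR3 ligand, was not among the 23 that were higher, and it was the brightest list member in naive samples. The list's summed signal was 226 to 355 in naive and 446 to 732 in immunised samples. Without Cxcl11 it was 4.80 to 6.04 and 229 to 517. Ccl19, a ligand of CCR7, differed by −0.40 (adjusted p = 0.142). Macrophages and neutrophils are known sources of several of these ligands, and their marker lists moved in the same direction; their part was not tested.

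Promoter sequences of the chemokine ligands are shown because these genes rose together and NF-κB is a known activator of several of them. RefSeq promoter windows (GRCm38.p6, 250 bases before to 50 after the start) were found for 17 of the 25 ligands. The κB consensus, searched on both strands, lay in 6 of these 17 (35.3%), in 6 of 18 immediate early genes and in 12% of the 11608 tested genes with a window. The holders among the ligands were Cxcl1, Cxcl2, Cxcl3, Cxcl10, Ccl1 and Ccl9. A cyclic AMP response element (TGACGTCA) lay in 2 immediate early genes and 3.35% of tested genes, and a CArG box in 2 and 1.69%; neither was found in a chemokine ligand window. The 150 bases before the start follow for the CXC ligands, 5′ to 3′ on the gene's strand, with the bases of κB matches in capitals (matches on opposite strands overlap and run together).
Cxcl1, chr5:90891095-90891244, plus strand: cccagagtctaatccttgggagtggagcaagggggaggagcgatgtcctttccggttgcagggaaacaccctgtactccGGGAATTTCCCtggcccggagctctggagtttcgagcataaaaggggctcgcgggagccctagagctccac
Cxcl2, chr5:90903749-90903898, plus strand: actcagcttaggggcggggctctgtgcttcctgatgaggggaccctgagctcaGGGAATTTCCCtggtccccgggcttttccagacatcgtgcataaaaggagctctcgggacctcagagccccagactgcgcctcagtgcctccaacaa
Cxcl3, chr5:90785951-90786100, plus strand: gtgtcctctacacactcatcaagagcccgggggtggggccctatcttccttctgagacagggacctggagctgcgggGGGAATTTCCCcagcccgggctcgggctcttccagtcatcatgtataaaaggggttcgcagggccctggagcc
Cxcl10, chr5:92348890-92349039, minus strand: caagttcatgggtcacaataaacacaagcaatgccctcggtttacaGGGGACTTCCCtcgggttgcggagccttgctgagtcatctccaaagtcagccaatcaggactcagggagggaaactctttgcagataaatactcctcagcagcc
The match began 71 bases before the start in Cxcl1, 97 in Cxcl2, 73 in Cxcl3 and 104 in Cxcl10. A match is a description of these letters and not a measured binding site.

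Of 19 chemokine receptors, 11 were higher and 2 lower (median 3.46, or 3.31 at bounds). Ccr2, through which monocytes and inflammatory T cells reach tissues, was at −3.05, −2.0 and −2.12 in naive and 3.46, 3.13 and 2.82 in immunised samples (difference 5.53 ± 0.48, adjusted p = 1.09e-05). Cxcr4, the receptor for CXCL12, rose by 3.31. Cxcr2, the neutrophil receptor for CXCL1 and CXCL2, was at least 49.1-fold higher. The receptors for lymph node and gut homing fell: Ccr7 was at 6.92, 6.19 and 6.38 in naive and 2.93, 4.34 and 3.35 in immunised samples, a fall of 2.95 ± 0.41 (adjusted p = 0.000254), and Ccr9 fell by 3.03 (adjusted p = 0.00035). Cxcr3, the receptor of CXCL9 and CXCL10, was 3.50 higher with an adjusted p of 0.051, and was called with the 6 arrays alone (0.000208).

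Of 22 integrins and adhesion molecules, 11 were higher and 3 lower (median 0.93). The beta-1 chain Itgb1 was at −0.66, −0.72 and −0.42 and 2.80, 3.30 and 2.32, a rise of 3.41 ± 0.29 (adjusted p = 1.04e-05). Itga4, which pairs with it in VLA-4 for entry into the CNS, differed by −0.43 ± 0.59 (adjusted p = 0.571). Icam1 rose by 1.78 and Itgav by 1.56. Itgax, the CD11c chain of dendritic cells and macrophages, was at least 202-fold higher.

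Of 14 granzyme and cytotoxic granule genes, 8 were higher and 1 lower (median 2.47). Gzmb, granzyme B, was at −3.04, −1.23 and −1.45 in naive and 3.17, 3.42 and 3.72 in immunised samples, a rise of 5.34 ± 0.64 (adjusted p = 9.8e-05). Nkg7, a granule membrane protein, rose by 2.48, and Ctsw by 3.63. Prf1, the pore-forming perforin, fell by 1.42 (adjusted p = 0.00368).

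Genes of the naive and quiescent state fell nearly throughout. Of 25 tested, 0 were higher and 22 lower, against 29.9% lower over all genes, with a median difference of −2.73. Lef1 and Tcf7, the transcription factors of naive T cells, fell by 2.46 ± 0.27 and 2.73 ± 0.67 (adjusted p = 5.46e-05 and 0.00654). Lef1 was at 5.86, 5.81 and 5.88 in naive and 3.41, 3.81 and 2.95 in immunised samples. Bach2, a repressor that holds T cells in the resting state, was at 0.74, 1.76 and 1.35 and −2.27, −2.07 and −3.01, a fall of 3.74 ± 0.31 (adjusted p = 7.76e-06). Satb1, a chromatin organiser, fell by 2.09, the co-stimulatory receptor Cd27 by 3.08, Igfbp4 by 3.07 and Foxo1, the factor that maintains quiescence, by 1.61. Il7r, the receptor for the survival factor IL-7, differed by 0.44 ± 0.40 (adjusted p = 0.389). Of 8 members of the GIMAP family of lymphocyte GTPases, 0 were higher and 6 lower (median −1.06), with Gimap8 at −1.95 and Gimap6 at −1.72.

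Of 18 TGF-β ligands, receptors and targets, 8 were higher and 2 lower (median 0.71). Among ligands, Tgfb3 rose by 2.62 and Tgfb1 by 1.20. Among receptors, Tgfbr1 rose by 1.77 (adjusted p = 0.000593, and 0.1 with the mean of its probes), Tgfbr2 differed by −0.03 (adjusted p = 0.94), and Tgfbr3, betaglycan, was at 1.39, 1.74 and 1.71 in naive and −1.81, −1.32 and −1.94 in immunised samples. It fell by 3.30 ± 0.41 (adjusted p = 0.000118).

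Genes of DNA replication and mitosis were higher in part. Of 29 tested, 19 were higher and 0 lower (median 1.47, or 1.23 at bounds). The proliferation antigen Mki67 was at −0.17, 1.58 and 1.58 and 3.20, 3.34 and 3.51, a rise of 2.36 ± 0.40 (adjusted p = 0.00079). Top2a, the mitotic topoisomerase, rose by 2.39, the cyclin Ccna2 by 2.34 and E2f1 by 2.55. Of the replication licensing genes Mcm2 to Mcm7, those tested differed by −0.08 (Mcm2), 0.55 (Mcm3), −0.04 (Mcm4), 0.63 (Mcm5), 0.55 (Mcm6) and −0.37 (Mcm7), and none was called; these members were singled out after their values were seen. With the 6 arrays alone, Mcm3, Mcm5 and Mcm6 were called (adjusted p = 0.0293, 0.0307 and 0.0365).

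Few type I interferon-stimulated genes were called. Of 26 tested, 3 were higher and 0 lower (11.5% and 0%, against 19.9% and 29.9% of all genes, median 0.47). These 3 were Rsad2 (2.30), Isg20 (1.11) and Bst2 (0.83). The number that were higher was 0 without naive replicate 3 or immunised replicate 3 and 8 without cultured Th17 replicate 3. Their summed signal spread widely among naive arrays, from 83.7 to 173, against 119 to 208 among immunised arrays. Of 25 interferon gamma targets, 6 were higher and 1 lower (median 0.31). Nos2, the inducible nitric oxide synthase, rose by 3.47, Irf8, a myeloid transcription factor, by 3.76 and Cd274, which encodes PD-L1, by 2.20. Irf1, a direct target, differed by 0.18 ± 0.31 (adjusted p = 0.652), and the GTPase Gbp4 fell by 1.76 (adjusted p = 0.00186).

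Glycolysis genes rose. Of 19 glycolysis genes, 16 were higher and 0 lower (median 1.74). Slc16a3, a lactate exporter, was at −2.62, −2.06 and −2.10 in naive and 4.36, 3.91 and 4.77 in immunised samples (difference 6.60 ± 0.38, adjusted p = 9.55e-07). The glucose transporter Slc2a1 rose by 2.62, Pgk1 by 2.14, Tpi1 by 3.89, Gapdh by 1.38 and Ldha by 0.72. Of 15 hypoxia response genes, 7 were higher and 1 lower (median 1.02). The oxygen-regulated factor Hif1a rose by 2.87 and its target Bnip3 by 3.72, whereas Pdk1, another target, fell by 2.72 (adjusted p = 1.86e-05). Of 23 cholesterol synthesis genes, 3 were higher and 3 lower (median 0.07), and of 13 heat shock chaperones, 2 were higher and 1 lower (median −0.03), both below the background shares. Of 13 BCL2 family genes, 8 were higher and 0 lower (median 1.20). The rises included survival genes, Bcl2a1d (5.40) and Bcl2l1 (2.37), and the death-promoting genes Pmaip1 (4.39), Bcl2l11 (2.05) and Bbc3 (1.86).

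**Figure D4:**
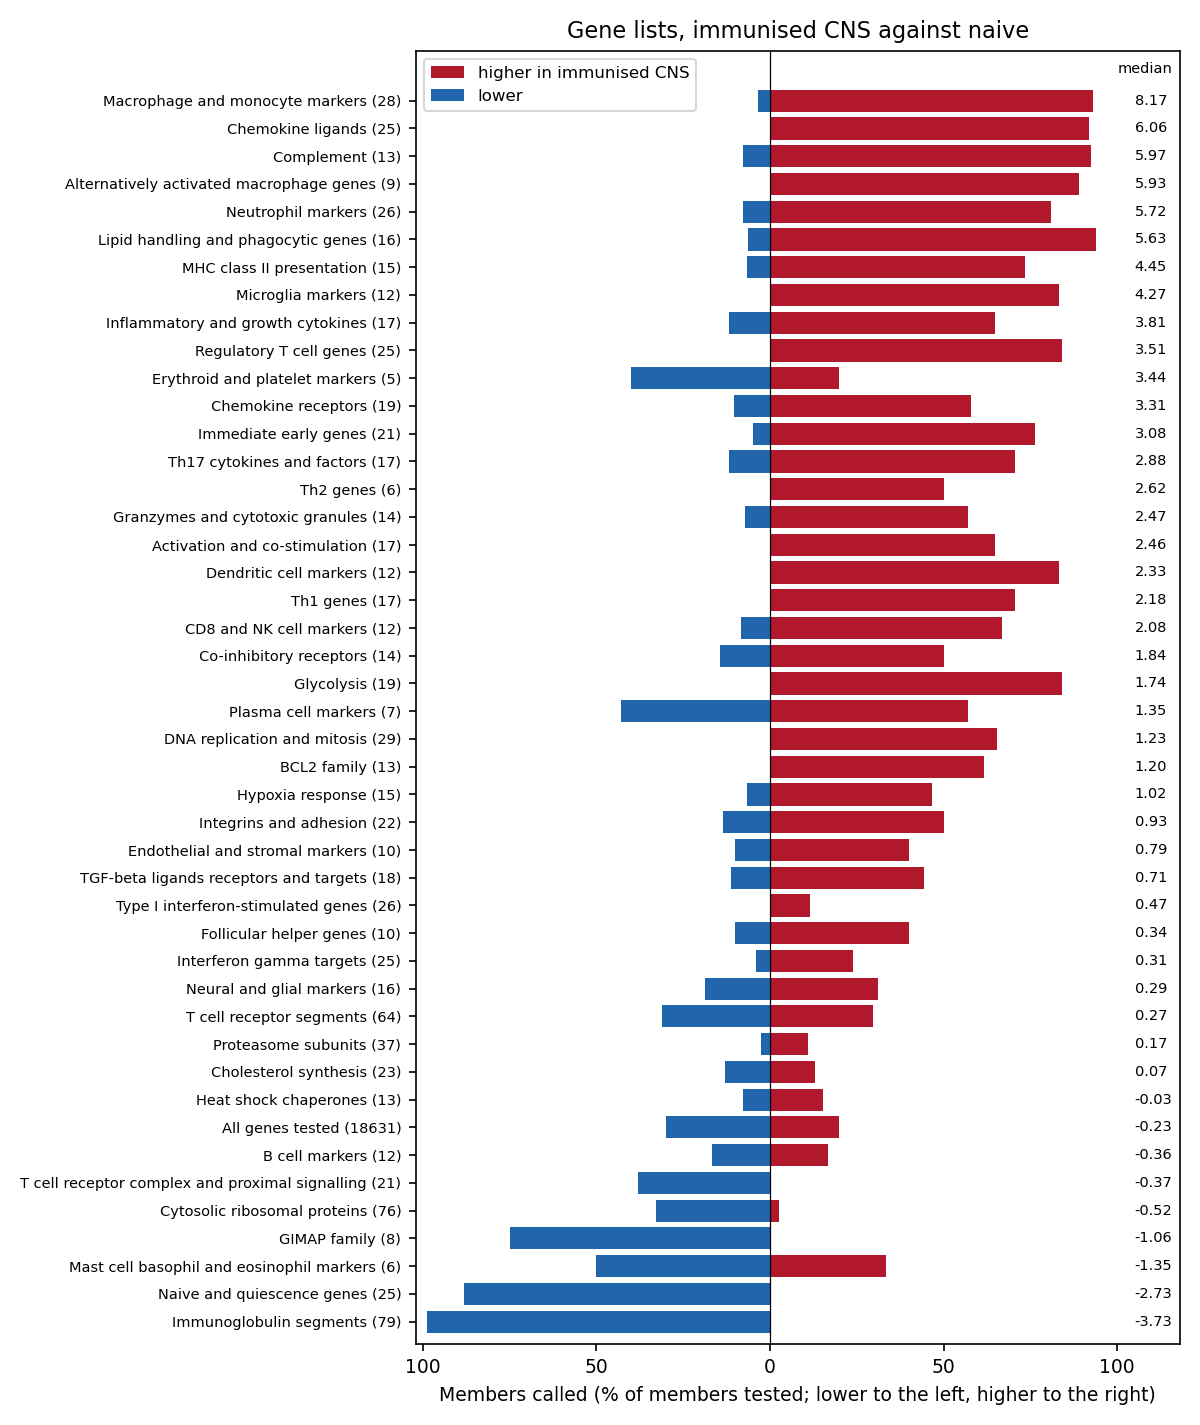
Members of each gene list called higher (right, red) or lower (left, blue) in immunised CNS against naive samples, as a percentage of the members tested (number in brackets; the median log2 difference, with genes below background at their bounds, stands at the right). Macrophage markers have the highest median (8.17) and immunoglobulin segments the lowest (−3.73); all genes tested stand at 19.9% higher and 29.9% lower.

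Genes of antigen presentation, complement and lipid handling rose strongly. Of 15 MHC class II presentation genes, 11 were higher and 1 lower (median 4.45). H2-Aa, a class II alpha chain, was at −2.72, −3.75 and −3.50 in naive and 5.63, 4.72 and 6.46 in immunised samples (difference 8.93 ± 0.52, adjusted p = 1.06e-06). Cd74, the invariant chain, rose by 6.69, and H2-Ob, part of a modulator made by B cells, fell by 1.56 (adjusted p = 0.00288, and 0.0711 with the mean of its probes). Of 13 complement genes, 12 were higher and 1 lower (median 6.42, or 5.97 at bounds). C1qb, a chain of the first component, was at −3.90, −4.47 and −3.91 and 4.66, 4.03 and 5.78 (difference 8.92 ± 0.40, adjusted p = 2.46e-07). Cd55, which protects cells from complement and is present on T cells, was the 1 fall, by 2.73 (adjusted p = 0.000593). Of 16 lipid handling and phagocytic genes, 15 were higher and 1 lower (median 5.63), with Apoe at 8.58 and the lipid-sensing receptor Trem2 at least 1138-fold higher. Of 9 alternatively activated macrophage genes, 8 were higher and 0 lower (median 7.50, or 5.93 at bounds), with Arg1, arginase, at least 1759-fold higher and Chil3 at 10.37. Not well above background on any naive array were 5 of these 9, 3 complement, 3 lipid handling and 2 MHC class II genes. Such members passed the filter only through other groups and could hardly be called lower. These counts thus lean towards rises by selection. The macrophage markers given above moved with these lists, and their part was not tested.

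T cell receptor segments were called in both directions, and nearly all immunoglobulin segments tested were lower. Of 64 T cell receptor segments (found by the array's own descriptions), 19 were higher and 20 lower, with differences from −6.94 to 4.94. These are 29.7% and 31.2%, against 19.9% and 29.9% of all genes, so the share that was lower is near the background. A T cell receptor beta chain clone was at 8.33, 8.33 and 8.49 in naive and 1.43, 1.97 and 0.92 in immunised samples, the largest fall measured on all 6 arrays (−6.94 ± 0.24, adjusted p = 1.33e-07). The alpha segment Trav14n-1 fell by 5.30, and the segment that the file names T cell receptor alpha variable 9D-1 by 5.30. Probes of related segments can pick up each other's transcripts, so single segments are uncertain. Of 120 immunoglobulin segments on the array, 79 were tested, and 0 were higher and 78 lower (median −4.14, or −3.73 at bounds). All 79 were well above background on all 3 naive arrays, but only 15 on all 3 immunised arrays. A segment measured in naive samples alone passed the filter, so the count leans towards falls by selection. Their summed signal ran from 41.6 to 255 in naive and from 4.99 to 17.1 in immunised samples, and within slides the median difference was −4.78, −1.62 and −6.36. Jchain, which joins secreted antibodies and is made by plasma cells, was at 4.26, 1.61 and 4.47 and −1.24, 0.77 and −3.87 (fall of 4.89 ± 1.22, adjusted p = 0.00739). In the 6 arrays alone with slide as a block, 47 segments were lower and the adjusted p of Jchain was 0.0571. Plasma cell markers split into 4 higher and 3 lower of 7, and the part of plasma cells in the naive samples was not tested.

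Of 76 cytosolic ribosomal protein genes, 2 were higher and 25 lower (median −0.52), and of 37 proteasome subunits 4 were higher and 1 lower (median 0.17). The ribosomal share is close to the 29.9% of all genes and rested on single arrays: 4 were lower without naive replicate 1, 11 without naive replicate 3, 16 without transferred replicate 2, 57 without cultured Th17 replicate 3, and 8, 12 and 8 without immunised replicates 1, 2 and 3. With median scaling the number was 4.

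Beside the members named above, the 15 largest rises measured on all 6 arrays included AA467197 (10.11), Plbd1 (9.45), the predicted gene Gm6522 (9.06) and Aif1 (8.65), which encodes the macrophage protein IBA1, next to Tgfbi, Chil3, S100a8, Ccl3, S100a9 (9.13), H2-Aa, Camp, C1qb, Lcn2 and Apoe. Aif1 was at −3.66, −3.28 and −3.89 in naive and 4.99, 4.23 and 5.90 in immunised samples. Among the 8 largest bounds were Il1b, the cytokine IL-1β, at least 5526-fold higher, the acute-phase protein Saa3, at least 3417-fold, and Pla2g7, at least 1325-fold, with Arg1, Retnlg, C1qc, Cxcl2 and Ccl2. Il1b was not well above background on any naive array and was at 6.97, 6.21 and 7.18 on the immunised arrays.

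Among the 15 largest falls measured on all 6 arrays were, outside receptor and immunoglobulin segments, Dapl1, the monocarboxylate transporter gene Slc16a5 (−6.60), Dntt (−5.29), Tdrp (−5.21), Wnt5b (−5.15) and Lypd6b (−5.11). Dntt encodes the terminal transferase that adds bases to rearranging receptor genes in thymocytes, and it was at 4.08, 3.77 and 3.19 in naive and −2.12, −1.06 and −1.64 in immunised samples. Slc16a5 was at 2.29, 2.63 and 2.43 and −4.22, −3.67 and −4.56, with no overlap. Unnamed transcripts made up others of this set: LOC100505358 (−6.10), TC1729421 (−5.53) and a further predicted gene (−6.05). Of the 8 largest falls to background, 5 were immunoglobulin kappa transcripts, and the others included Amigo2, an adhesion molecule, at least 22.4-fold lower, and Fam240a, at least 27.9-fold lower.

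The immunised group was then set directly against the transferred group, the other CD4+ T cells taken from the CNS in EAE. With 18631 genes tested, 594 (3.19%) were called, 339 (1.82%) higher and 255 (1.37%) lower in the immunised group. Of these, 404 were also called against naive. The call count rested on single arrays: it was 192, 221 and 357 without immunised replicates 1, 2 and 3, 342 and 271 without transferred replicates 2 and 3, and 1291 without cultured Th17 replicate 3. Except for S100a8, Ikzf2 and those given as not called, the genes named in what follows were called in each of those fits.

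The neutrophil and macrophage lists divided. Of 26 neutrophil markers, 13 were higher and 0 lower in the immunised than in the transferred group, and of 28 macrophage markers 0 were higher and 1 lower. The neutrophil count rested on single arrays: it was 3, 4 and 6 without immunised replicates 1, 2 and 3, and 6 and 8 without transferred replicates 2 and 3. The macrophage count of higher genes was 1 without cultured Th17 replicate 3. Cd177, a neutrophil surface protein, was at −2.64, −4.85 and −5.39 in transferred and 0.13, −0.45 and −0.12 in immunised samples (difference 4.15 ± 0.58, adjusted p = 0.004). Mrgpra2a, a receptor of neutrophils, was 4.82 higher (adjusted p = 0.00181). S100a8 was 4.04 ± 0.88 higher than in the transferred samples, which spread over 5.35, 3.32 and 0.69 (adjusted p = 0.0376). Its adjusted p exceeded 0.05 without naive replicate 1 (0.0529), naive replicate 2 (0.0564), naive replicate 3 (0.0547), cultured Th17 replicate 1 (0.0526), transferred replicate 2 (0.0862), immunised replicate 1 (0.134), immunised replicate 2 (0.106) or immunised replicate 3 (0.0789). Tgfbi, at 6.71, 7.56 and 7.49 in transferred samples, differed by −0.07 ± 1.02 (adjusted p = 0.98).

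The macrophage marker that was lower was Mrc1, the mannose receptor of alternatively activated macrophages. It was at 3.48, 4.03 and 5.82 in transferred and −0.11, −0.80 and 0.52 in immunised samples, a difference of −4.57 ± 0.68 (adjusted p = 0.00591). Ccl24, an eosinophil attractant, was at 4.20, 3.08 and 6.73 in transferred and −4.02, −4.67 and −4.71 in immunised samples (−9.13 ± 1.22, adjusted p = 0.00316). Pdcd1lg2, which encodes PD-L2, and Cd200, an inhibitory ligand, were lower by 2.11 and 2.02 (adjusted p = 0.00843 and 0.00482).

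Foxp3 was at −3.76, −2.57 and −1.52 in transferred samples, and the immunised group was 4.25 ± 0.51 higher (adjusted p = 0.00198). Klrg1, a receptor of differentiated effector and regulatory cells, was at −0.95, −0.56 and −0.78 in naive, −2.0, −2.73 and −1.64 in transferred and 0.65, 1.74 and 2.10 in immunised samples. It was 3.62 ± 0.38 higher than after transfer (adjusted p = 0.00105). Ikzf2 was at −6.47, −3.39 and −2.57 in transferred samples, 4.42 ± 0.94 below the immunised group (adjusted p = 0.0336), but its adjusted p exceeded 0.05 without naive replicate 3 (0.0505), transferred replicate 2 (0.0602), immunised replicate 1 (0.107), immunised replicate 2 (0.111) or immunised replicate 3 (0.0704). Of all 25 regulatory T cell genes, 4 were higher and 0 lower than in the transferred group, against 1.82% and 1.37% of all genes. Without any 1 of the immunised replicates 2 were higher, and without transferred replicate 1 there was 1 lower.

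Among effector cytokines, Il21, which is made by Th17 and follicular helper cells, was at 4.16, 4.05 and 3.88 in transferred and −0.37, 0.19 and −0.56 in immunised samples (−4.28 ± 0.48, adjusted p = 0.00122), and the groups did not overlap. Tnfsf8, CD30 ligand, was lower by 2.73 (adjusted p = 0.00354). Il17a, Ifng and Csf2 differed between the CNS groups by 1.68 ± 0.81, 1.36 ± 1.61 and 0.48 ± 0.69, and were not called (adjusted p = 0.276, 0.679 and 0.74). Il22 differed by 4.62 ± 1.14 (adjusted p = 0.0579) and was not called, although its transferred values of −4.71, −4.93 and −4.49 lay below the immunised ones. Gzmk, granzyme K, was 2.71 ± 0.40 higher (adjusted p = 0.00584).

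Tgfbr3 was at 2.19, 1.20 and 0.77 in transferred samples, 3.08 ± 0.41 above the immunised group (adjusted p = 0.00305), and Dtx1, a regulator of Notch signalling in resting T cells, was at 4.33, 4.10 and 4.28 in naive, −2.73, −2.17 and −3.61 in transferred and 0.82, 1.24 and 0.22 in immunised samples (difference 3.60 ± 0.46, adjusted p = 0.00249). Of 79 immunoglobulin segments, 7 were higher and 0 lower than in the transferred group, against 1.82% and 1.37% of all genes. The number higher was 4 without any 1 transferred replicate, 3 without immunised replicate 1 or 2 and 2 with normexp background correction. Ms4a1, the B cell protein CD20, was at −2.21, −3.86 and −2.27 in naive, −7.85, −7.80 and −7.97 in transferred and −3.26, −3.46 and −3.59 in immunised samples. It was not well above background on any transferred array and was at least 4.88-fold higher in the immunised group (adjusted p = 0.000975, and 0.0788 with normexp background correction). Of 12 B cell markers, 3 were higher and 0 lower than in the transferred group, against 1.82% and 1.37% of all genes. RAG1-/- recipients are known to lack B cells of their own, and the part of this in these differences was not tested. Of 64 T cell receptor segments, 34 were higher and 7 lower than in the transferred cells, against the same shares of all genes. The transferred cells carry the B6.2d2 receptor, and its part in these differences was not tested.

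**Figure D5:**
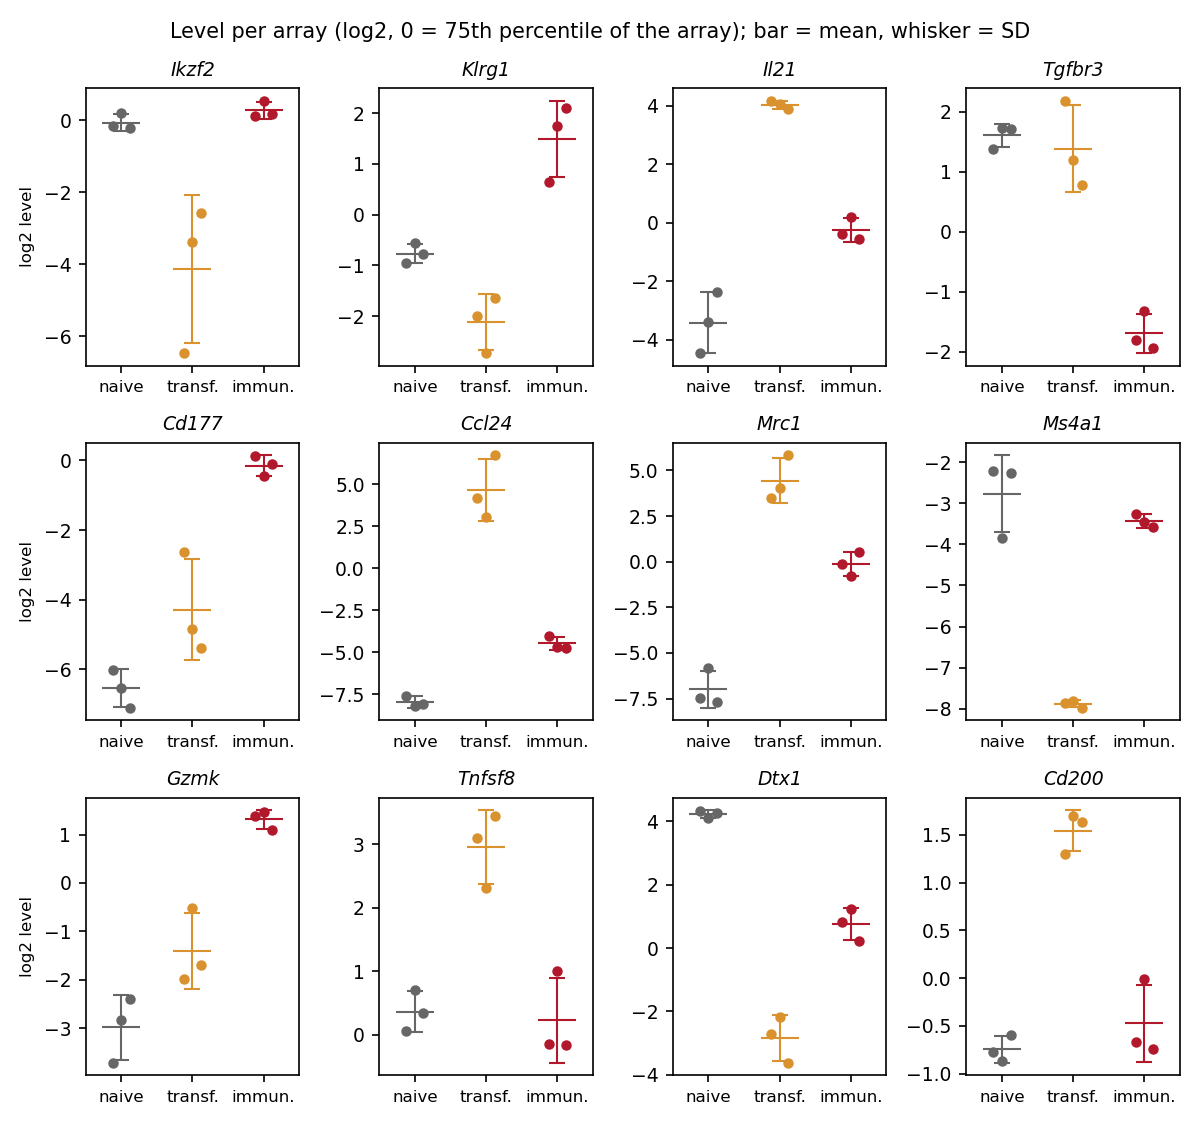
Level of 12 genes called between the immunised and transferred CNS groups, on each of 3 naive, 3 transferred and 3 immunised arrays (vertical axis, log2 signal relative to the 75th percentile of the array; bars are means and whiskers SDs). Ikzf2, Klrg1 and Ms4a1 lie lowest in the transferred samples, where Ms4a1 was below background, and Tgfbr3 lies lowest in the immunised samples.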

How the data were processed

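Total RNA from each sample (100 ng, extracted with NucleoSpin RNA II and labelled with Cy3, per the labels' protocols) was hybridised to 1 one-colour array. The authors scanned and quantified each array with Agilent Feature Extraction 10.7.3.1 (protocol GE1_107_Sep09, mm9 probe coordinates), per the file headers; the deposited intensity values used were the processed signal, in which background was subtracted within the array, and, for an alternative, the raw spot and local background signals. The deposited series matrix, also in intensity values, has like medians on all arrays; its normalization is not given in the sources used here, and it served as an alternative.

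Control spots and spots marked as outliers (120 to 180 per array) were left out and repeated spots averaged, which left 39405 of 39429 probes. From the deposited signals, log2 values minus each array's 75th percentile (signals of 686 to 1023) were computed. Probes were named through RefSeq tables (27223 by accession, 3573 by symbol, 565 by synonym, 8044 as in the file). The probe with the highest mean stood for its gene, and genes had to be well above background in every array of 1 or more groups to be tested. A gene dim in 1 group could thus enter only through a group where it was bright, which favours calls in that direction. Measured probes differed in direction (below −0.5 and above 0.5) for 172 of 4322 genes with several.

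All 12 arrays entered 1 linear model in limma 3.58.1 (R 4.3.3; lmFit, contrasts, eBayes; 8 residual and 2.464 prior degrees of freedom), so the error is shared with the cultured and transferred groups. Adjusted p-values are two-sided Benjamini-Hochberg values of limma over all 18631 genes, called under 0.05. SE is that of the fit. Where every probe of a gene was below background on all 3 arrays of the lower group, the fold is a lower bound: the brighter group's mean against, per array, the higher of the lowest signal well above background and the probe's own. The model was tested on simulated data.

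The comparison, gene lists and tests were chosen with earlier results of these data known. The 44 lists overlap (60 genes in several). Named genes were, from called genes with no overlap between groups, the top 15 each way by difference among those measured on all 6 arrays and the top 8 each way by bound, the markers S100a8, Tgfbi, Foxp3 and Dapl1, and list members. Receptor and immunoglobulin segments were found by the array's descriptions. Replicate number marks the slide (3 slides, 1 array of each group at a position fixed by group, so position and group cannot be told apart). Same-numbered naive and immunised arrays did not deviate together, so the main model has no block. Alternatives were other background corrections, scalings, filters, probe rules and priors, slide as a block, the 6 arrays alone, a threshold of 0.01 and each array left out in turn; the block with the 6 arrays alone was added after seeing the data. Some genes that the rule covers are not reported here. Promoter sequences are RefSeq's (GRCm38.p6). Python 3.11.15 with pandas 2.3.3 made the tables, and matplotlib 3.10.9 the figures.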

Additional observations from a re-analysis of the deposited data

Results flagged for a closer look

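The immunised and transferred CNS groups differed from each other in 594 genes (limma, adjusted p under 0.05), which means that their differences from the shared naive samples were unequal. Of the genes named above, those higher in the immunised than in the transferred group were, with the log2 difference, Ltf (6.40), Camp (5.58), Lcn2 (5.03), Mrgpra2a (4.82), Ikzf2 (4.42), Foxp3 (4.25), Cd177 (4.15), S100a8 (4.04), Klrg1 (3.62), Dtx1 (3.60), Gzmb (2.89), Cxcr2 (2.75), Il1r2 (2.74), Gzmk (2.71), Ccr9 (2.16), Cxcr6 (1.74), Rora (1.72), H2-Ob (1.55), Icos (1.52). Jchain and Ms4a1, not well above background on any transferred array, were at least 19.4-fold and 4.88-fold higher, and neither was called with normexp background correction. Those lower were Ccl24 (−9.13), a T cell receptor beta chain clone (−6.18), a predicted gene (−5.27), Mrc1 (−4.57), T cell receptor alpha variable 9D-1 (−4.33), Il21 (−4.28), Tgfbr3 (−3.08), Tnfsf8 (−2.73), Ccr7 (−2.14), Pdcd1lg2 (−2.11), Cd200 (−2.02), Bach2 (−1.68). Leaving out at least 1 single array ended the call for Bach2, Camp, Ccr7, Ccr9, Cxcr2, Cxcr6, Gzmb, H2-Ob, Icos, Ikzf2, Il1r2, Jchain, Lcn2, Ltf, Rora and S100a8.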

How the results depend on the processing

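Of 178 named genes called against naive, 160 kept their direction and their call under each of 24 alternatives (the threshold of 0.01 included), 18 lost the call under at least 1, and Itgam alone was reversed, at 1.70 with the mean over its probes. Of 24 named genes not called, 6 were called under at least 1 alternative. The count called against naive was within 1.5 times 9268 under each alternative, apart from the lower genes at an adjusted p under 0.01 (3477 genes). The median difference over the same genes ran from −0.27 to −0.16 across alternatives. No alternative moved the share of higher genes among those called by over 10 percentage points.

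The comparison with the transferred group was less stable. At an adjusted p under 0.01 it gave 181 genes (109 higher and 72 lower), without the filter on dim probes 380 (222 and 158), and with median scaling 161 lower genes. Leaving out 1 array at a time gave 192 to 1291 genes (117 to 716 higher and 75 to 575 lower), and 7027 to 10536 against naive. Ribosomal genes that were lower numbered 11 with quantile normalization and with the series matrix, 14 without the filter and 2 at the stricter threshold. Other list counts that moved by over 1.5 times were, beside those given in the report, counts of 4 or fewer, the 8 lower genes of the T cell receptor complex (5 with median scaling, 4 at the stricter threshold) and the 16 higher immediate early genes at the stricter threshold (10).

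Deviations from the group means of same-numbered naive and immunised arrays correlated at −0.031, −0.115 and −0.141. With 3 arrays a group, such values cannot settle whether the numbers pair the samples. With replicate number as a block, 9077 genes were called against naive and 548 against the transferred group, and 8199 in the 6 arrays alone with the block. Genes well above background on none of the 3 arrays of the lower group have only bounds against naive (594 called rises and 370 called falls). Differences of genes measured on 1 or 2 of those arrays rest partly on signals at background and were smaller with normexp: 7.31 for Atf3, 8.46 for Lyz2, 6.83 for Il17a, 4.54 for Havcr2, 3.18 for P2ry12, 4.65 for Tmem119, 3.05 for Il10 and 6.73 for Il1r2, all called.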
